A study of Mus musculus with 48 samples.

Results

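The genes described here are the mitochondrial solute carriers of family 25, the SLC25 carriers. They were taken as every Ensembl identifier in the count files whose mouse symbol is Slc25a followed by a number, which gave 47 genes among 56748 identifiers, 52073 of which carried a symbol. Family proteins with other names, such as Ucp1 and Mtch2, were kept apart as a comparison list. The choice used names only, so no measured value selected a member.

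SLC25 carriers are small proteins of the inner mitochondrial membrane that exchange metabolites, nucleotides, cofactors and ions between the cytosol and the matrix, and a few members sit in the outer membrane or in peroxisomes. Brown fat relies on such carriers to bring in acylcarnitines, whose oxidation feeds a dense respiratory chain during heat production. Ucp1, the protein that lets this tissue release respiratory energy as heat, belongs to the same protein family. Liver uses other members for the urea cycle and for the malate-aspartate shuttle, which moves reducing equivalents into mitochondria, and both liver and fat export citrate through one of them when they make fatty acids.

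RNA was sequenced from 3 tissues of male mice: brown fat (BAT), liver, and the white fat beside the epididymis (eWAT). The mice were hepAGT-/- animals (KO), with angiotensinogen (Agt), from which angiotensin peptides are cut, deleted in hepatocytes, or their hepAGT+/+ littermates (WT). Every mouse, controls included, ate a Western diet (TD.88137, milk fat 21%, cholesterol 0.2%) over 12 weeks. Housing was either at 20 to 22 °C, the room temperature of the facility (RT), or at 30 °C, which is thermoneutral for mice (TN), so that little extra heat needs to be made. No group on another diet was part of the design, and neither the animals' age nor the Cre line behind the deletion is given in the sources used here. Tissue, genotype and housing define 12 groups of 4 libraries, named WT RT, WT TN, KO RT and KO TN within each tissue and labelled as biological replicates. The design asks how housing temperature and the hepatocyte deletion affect each tissue.

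Libraries held 23.7 to 43.7 M counts, and the 47 carriers together took 0.263% to 0.509% of the counts of a library. In BAT the carriers' share ran from 0.473% to 0.503% in WT RT (median 0.484%) and from 0.32% to 0.427% in WT TN (median 0.385%). In KO it ran from 0.373% to 0.509% at RT (median 0.463%) and from 0.346% to 0.433% at TN (median 0.427%), and these ranges overlapped. Agt, the targeted gene, had 254 to 455 CPM (counts per megacount) in the 8 WT liver libraries and 133 to 213 CPM in the 8 KO liver libraries. The labelled tissues carried their defining markers, with 8 brown adipocyte markers summing to 3610 to 13900 CPM in BAT, 10 hepatocyte markers to 63700 to 105000 CPM in liver and 8 mature adipocyte markers to 26400 to 41900 CPM in eWAT. Other cells' markers varied between libraries. Skeletal muscle markers, 10 in all, summed to over 1000 CPM in 6 of the 16 BAT libraries and to under 403 CPM in the other 10, hepatocyte markers reached 2848 CPM in BAT and 5435 CPM in eWAT, and 10 epididymis markers reached 885 CPM in WT RT library 18 of eWAT. In bulk tissue, fewer cells of a type and less RNA per cell cannot be told apart.

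Within a tissue, carrier levels are CPM after TMM scaling over its 16 libraries. Marker sums are plain CPM without TMM scaling. Levels per kilobase, which are set side by side across tissues, are scaled over all 48 libraries. Changes are log2 fold changes from edgeR's quasi-likelihood test with their standard errors (SE). A gene was called when its p was under 0.05 after Benjamini-Hochberg adjustment across the genes tested. A filter on low counts left 42 carriers in BAT, 42 in liver, 43 in eWAT and 45 in the fit over all 48 libraries. Slc25a41 and Slc25a54 passed in no fit. Slc25a54 had 2 counts in 1 eWAT library and 0 counts elsewhere, where a count of 0 allows up to 0.119 CPM in BAT and 0.127 CPM in liver. Slc25a41 had 4 counts over all BAT libraries, 10 over all eWAT libraries and 0 in liver. Slc25a18 and Slc25a43 failed the filter in BAT and liver, Slc25a21 in BAT, Slc25a31 in liver and eWAT, and Slc25a2 in eWAT.

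The tissues carried different sets of carriers. Of the 45 tested, 16 were higher in BAT than in both other tissues, 14 were higher in liver, 2 were higher in eWAT, and 13 had no single highest tissue. Among all genes of the same fit the shares were 15.9% for BAT, 24.2% for liver and 19.8% for eWAT. For 24 of the 45 carriers all 3 pairwise differences were called, beside 34.9% of all genes. Tissue differences were the rule among all genes too: 19 carriers were higher and 17 lower in BAT than in liver, beside 37% and 31.6% of all genes (68.6% in either direction). Against eWAT, 24 were higher and 9 lower in BAT, beside 29.2% and 31.1% (60.3%). Liver exceeded eWAT in 27 and fell below it in 10, beside 35.5% and 38.3% (73.8%). These differences are means over the 4 genotype and housing groups, and the heatmap of group means shows them as blocks of columns.

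**Figure D1:**
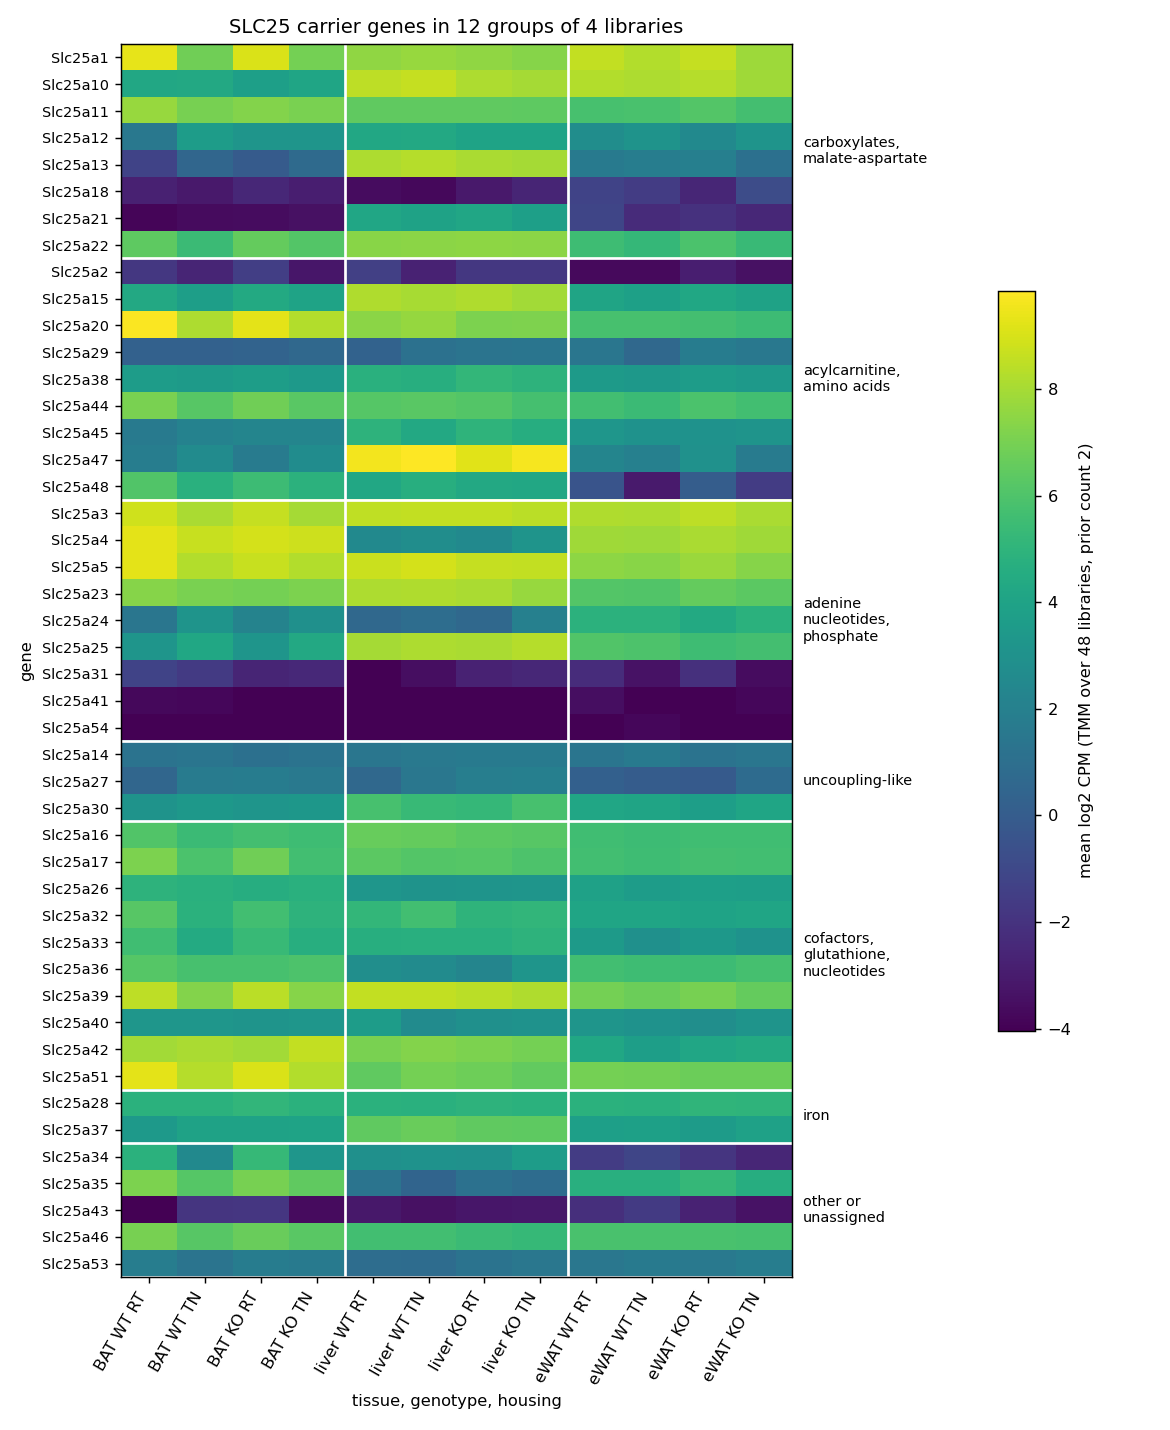
Mean log2 CPM of 46 of the 47 SLC25 carrier genes (vertical axis, ordered by the role of the protein) in the 12 groups of 4 libraries (horizontal axis), with TMM scaling over 48 libraries and a prior count of 2. The 3 tissue blocks differ more than the groups within them, and the most visible contrast inside a block is the drop of several rows in BAT from RT to TN.

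The adenine nucleotide carriers showed how far the tissues can differ inside one role. Slc25a4 and Slc25a5 encode ADP/ATP carriers, which return ATP made in the matrix to the cytosol. Per kilobase of exon, which allows genes to be compared, Slc25a4 stood at 212 ± 52.6 CPM per kb in BAT (SD, n = 16), 102 ± 13.7 in eWAT and 2.93 ± 0.842 in liver, while Slc25a5 stood at 251 ± 93.1, 111 ± 17.8 and 256 ± 33.4. Slc25a4 was thus low in liver, with a log2 difference of 6.18 (SE 0.13, edgeR adjusted p 1.36e-35) between BAT and liver. Slc25a5 differed between BAT and liver by -0.09 (SE 0.07, edgeR adjusted p 0.302) and was not called. That value is a mean over both housings, and the TN minus RT change of Slc25a5 differed between BAT and liver by -0.81. Slc25a25, a calcium-regulated ATP-Mg/phosphate carrier, differed by -4.31 (SE 0.23) on the log2 scale for BAT against liver, and its relative Slc25a24 was highest in eWAT, -3.58 (SE 0.19) for liver against eWAT.

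Several carriers stood far higher in liver than in BAT. Slc25a47, a carrier known for its expression in liver, had 264 ± 58.9 CPM per kb there (SD, n = 16) and 1.85 ± 1.25 in BAT, a log2 difference of -7.24 (SE 0.37) for BAT against liver. Slc25a13 (citrin), the aspartate/glutamate carrier of the malate-aspartate shuttle and the urea cycle in liver, differed by -7.67 (SE 0.47), and Slc25a15, the ornithine carrier of the urea cycle, by -3.96 (SE 0.11). Slc25a21, which carries oxodicarboxylates, had 9.89 to 24.9 CPM in liver. In BAT it had 20 counts in total, with 0 counts in 12 of 16 libraries, and it failed the BAT filter, so no size of difference is given. The dicarboxylate carrier Slc25a10 was high in liver (94.2 ± 24.6 CPM per kb) and in eWAT (84.1 ± 24.5), which did not differ by the test (log2 difference 0.15, SE 0.18, edgeR adjusted p 0.455), and low in BAT (5.73 ± 3.02).

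Levels of Slc25a47 and Slc25a13 in fat moved with hepatocyte markers. In eWAT, KO RT library 16 had the highest hepatocyte marker sum of the tissue, 5435 CPM, together with 27.7 CPM of Slc25a47 and 19.2 CPM of Slc25a13. WT TN library 7 of eWAT had the lowest sum, 31 CPM, with 2.86 and 2.72 CPM of these genes. In BAT, KO TN library 2 was highest in hepatocyte markers at 2848 CPM and in both genes, at 14.8 and 6.87 CPM. The part of hepatocyte RNA in these levels was not tested.

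Slc25a20, the carnitine-acylcarnitine carrier that brings fatty acids to oxidation, was higher in BAT than in both other tissues. So were Slc25a42, a coenzyme A carrier, and Slc25a51, the NAD+ carrier. Against eWAT, Slc25a20 was 3.17 (SE 0.11) higher in BAT on the log2 scale and Slc25a42 was 4.00 (SE 0.10) higher. Against liver, Slc25a51 was 2.05 (SE 0.10) higher. Slc25a35, an orphan carrier, exceeded its liver level by 5.74 (SE 0.15). Slc25a48, which has been assigned to choline transport, exceeded its eWAT level by 6.57 (SE 0.26), and Slc25a34, a carrier of unknown substrate, by 5.87 (SE 0.39). Both lay at or under 2.38 CPM in every eWAT library and at 0 counts in 2 of the 16, so these sizes rest on few eWAT counts. Liver too exceeded eWAT, by 5.65 for Slc25a48 and 4.87 for Slc25a34. The gaps to the other tissue were smaller. BAT and liver stood at 109 and 34.1 CPM per kb for Slc25a20 and 48.2 and 23 for Slc25a42. They stood at 12.7 and 6.35 for Slc25a48 and 8.73 and 3.47 for Slc25a34. Slc25a35 had 29.5 CPM per kb in BAT and 7.79 in eWAT, and Slc25a51 exceeded eWAT by 1.92.

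Housing changed the carriers in BAT most. In WT mice, 20 of 42 carriers were lower and 3 were higher at TN than at RT, beside 16.7% of all genes called lower, 15.9% called higher and 32.5% called in either direction. The median log2 change of the 42 carriers was -0.48, and that of all genes tested was 0.11. In KO mice, 6 carriers were lower and 0 higher, beside 8.52% of all genes called lower and 15.2% called in either direction, with a median of -0.19 for the carriers and 0.04 for all genes. The 6 carriers lower in KO were Slc25a1, Slc25a3, Slc25a17, Slc25a20, Slc25a39 and Slc25a51, and each was also lower in WT. The WT and KO comparisons share no library, and 19 of the 20 carriers lower in WT had a negative change in KO. The matching share over all genes lower in WT was not counted, so this agreement is not shown to be particular to the carriers. The count of calls in KO rose to 12 without KO RT library 9, and DESeq2 called 11.

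**Figure D2:**
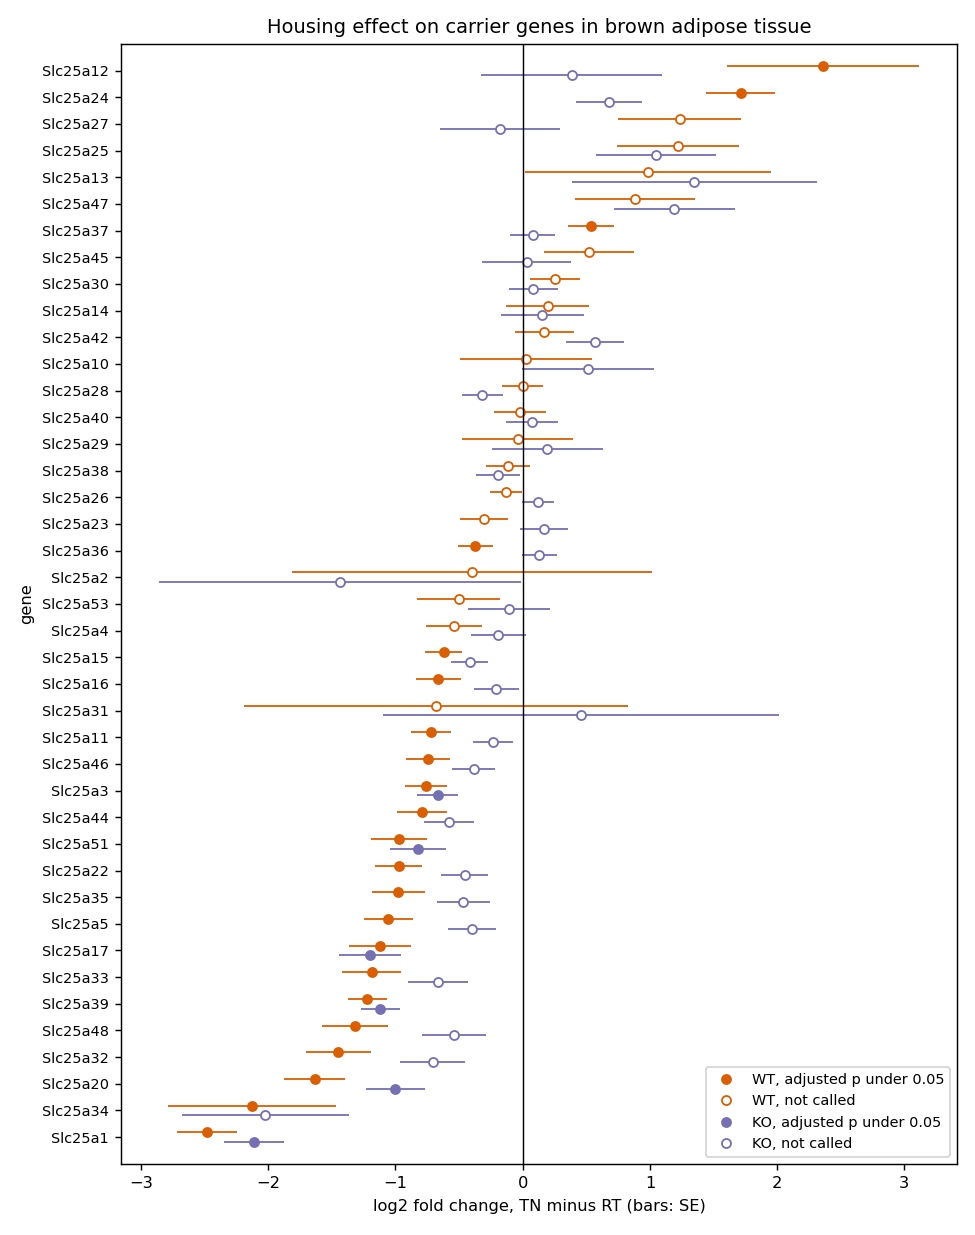
Log2 fold change from RT to TN in BAT (horizontal axis) for 41 of the 42 carriers tested (vertical axis, ordered by the WT change), in WT (orange) and KO (purple), with bars of 1 SE and filled points for an edgeR adjusted p under 0.05. Most points lie left of 0 in both genotypes, with Slc25a1 lowest in WT and KO and Slc25a12 highest in WT alone.

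The promoters of 3 genes are shown because these genes had the largest falls in WT BAT: the citrate carrier Slc25a1, Slc25a34 and the acylcarnitine carrier Slc25a20. Each sequence is the 250 bases before the RefSeq transcription start (GRCm38.p6), written 5′ to 3′ on the gene's own strand, at chr16:17928220-17928469 (minus strand), chr4:141623835-141624084 (minus strand) and chr9:108661886-108662135 (plus strand). Capitals mark matches, on either strand, to the motifs AAGGTCA (a nuclear receptor half-site), CACGTG (an E-box), GGGCGG (a GC box) and CCAAT, and no marked match overlaps another.
Slc25a1: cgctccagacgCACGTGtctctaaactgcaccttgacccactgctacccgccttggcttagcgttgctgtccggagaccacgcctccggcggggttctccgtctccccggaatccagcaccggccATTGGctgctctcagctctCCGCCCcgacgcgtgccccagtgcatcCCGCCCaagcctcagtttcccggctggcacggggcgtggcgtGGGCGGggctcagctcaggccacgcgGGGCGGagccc
Slc25a34: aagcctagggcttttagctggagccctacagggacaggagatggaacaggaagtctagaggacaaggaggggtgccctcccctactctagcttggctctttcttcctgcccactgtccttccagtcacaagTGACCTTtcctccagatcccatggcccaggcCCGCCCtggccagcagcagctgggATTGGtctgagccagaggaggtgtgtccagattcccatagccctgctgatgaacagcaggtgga
Slc25a20: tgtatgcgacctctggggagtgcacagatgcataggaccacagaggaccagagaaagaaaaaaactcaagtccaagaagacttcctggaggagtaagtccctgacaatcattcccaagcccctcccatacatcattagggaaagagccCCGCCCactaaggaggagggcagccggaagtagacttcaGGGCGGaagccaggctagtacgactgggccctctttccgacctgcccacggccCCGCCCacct
The Slc25a1 window held 1 CACGTG, 4 GGGCGG and 1 CCAAT match, the Slc25a34 window 1 AAGGTCA, 1 GGGCGG and 1 CCAAT match, and the Slc25a20 window 3 GGGCGG matches. The motifs were chosen after the changes were known. Promoter windows were found for 36 of the 47 carriers (46 windows). GGGCGG stood in 32 of these 46 windows and in 32.7% of all 32851 windows of this length, CCAAT in 21 (33.8% of all), CACGTG in 8 (6.02%) and AAGGTCA in 1 (4.08%). A match describes letters only and is not a binding site. Those with no window include Slc25a2, Slc25a26, Slc25a27, Slc25a32, Slc25a35, Slc25a37, Slc25a41, Slc25a44, Slc25a46 and Slc25a51.

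Among the carriers of di- and tricarboxylates and of the malate-aspartate shuttle, 3 of the 6 tested in BAT were lower and 1 was higher in WT at TN. The shares of all genes were 16.7% and 15.9%. Slc25a1 exports citrate, the carbon source of cytosolic fatty acid synthesis. Its 4 WT RT libraries had 507, 445, 577 and 945 CPM and its 4 WT TN libraries 107, 86.7, 94.6 and 154 CPM. In KO it had 492, 534, 473 and 521 CPM at RT and 125, 128, 84.7 and 129 CPM at TN. Every RT library therefore lay above every TN library in both genotypes. The level fell 5.59-fold in WT (log2 -2.48, SE 0.24, edgeR adjusted p 1.93e-06) and 4.33-fold in KO (log2 -2.11, SE 0.23, edgeR adjusted p 1.15e-05). Slc25a22, a glutamate carrier, fell by 0.98 on the log2 scale (SE 0.19) and Slc25a11, the oxoglutarate/malate carrier, by 0.72 (SE 0.16) in WT, and the WT TN library 24 of Slc25a11 at 156 CPM overlapped the lowest WT RT library at 155 CPM. Neither was called in KO. Slc25a10 had 10.4, 21, 20.6 and 26 CPM in WT RT and 26, 10.1, 16.9 and 26.3 CPM in WT TN, and the groups overlapped. Slc25a13 lay at or under 2.79 CPM in every WT BAT library and was not called.

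The acylcarnitine and amino acid carriers had 4 of 9 lower in WT, beside 16.7% of all genes. Slc25a20 had 599, 997, 949.9 and 749 CPM in WT RT and 277, 211, 217 and 355 CPM in WT TN. The KO libraries had 497, 573, 624 and 664 CPM at RT and 178, 311, 283 and 408 CPM at TN. The RT and TN libraries did not overlap in either genotype, and the change was -1.63 (SE 0.24, edgeR adjusted p 8.31e-05) in WT and -1.0 (SE 0.23, edgeR adjusted p 0.00726) in KO. Slc25a44, which imports branched-chain amino acids for oxidation in brown fat, had 144, 102, 123 and 124 CPM in WT RT and 66.8, 56.9, 69.8 and 91.2 CPM in WT TN, without overlap (log2 -0.79, SE 0.20, edgeR adjusted p 0.00481). In KO its values of 78.2, 132, 109 and 126 CPM at RT and 55.4, 95.3, 65.1 and 82.6 CPM at TN overlapped, and the change of -0.58 was not called (edgeR adjusted p 0.0531). Slc25a48 fell from 60.2 to 69.6 CPM to 19.3 to 30.6 CPM in WT (log2 -1.32, SE 0.26), and Slc25a15 changed by -0.62 (SE 0.15). The glycine carrier Slc25a38 and the basic amino acid carrier Slc25a29 were not called, with WT changes of -0.12 and -0.04.

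Of the 7 adenine nucleotide and phosphate carriers tested, 2 were lower and 1 was higher in WT, beside 16.7% and 15.9% of all genes. Slc25a3, which imports the phosphate used to make ATP, had 343, 451, 472 and 493 CPM in WT RT and 213, 273, 215 and 338 CPM in WT TN. The highest TN library lay just under the lowest RT library (log2 -0.76, SE 0.16, edgeR adjusted p 0.00191). In KO it had 364, 394, 379 and 378 CPM at RT and 269, 209.6, 244 and 230.3 CPM at TN (log2 -0.67, SE 0.16, edgeR adjusted p 0.00957), again with no overlap. Slc25a5 fell in WT from 423, 619, 702 and 618 CPM to 268, 245, 260.5 and 363 CPM (log2 -1.05, SE 0.19, edgeR adjusted p 0.000448), and its KO change of -0.40 (SE 0.19) was not called. Slc25a4 had 441, 631, 635 and 616 CPM in WT RT and 303, 414, 286 and 594 CPM in WT TN, with overlap and no call (log2 -0.54, SE 0.22, edgeR adjusted p 0.0663).

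Slc25a24, a second ATP-Mg/phosphate carrier, went the other way. It had 3.05, 2.58, 1.76 and 2.5 CPM in WT RT and 8.35, 7.82, 7.81 and 8.49 CPM in WT TN, which did not overlap (log2 1.71, SE 0.27, edgeR adjusted p 0.000159). In KO the levels were 6.66, 4.6, 2.79 and 3.78 CPM at RT and 9.38, 5.79, 7.76 and 5.61 CPM at TN, which overlapped (log2 0.68, edgeR adjusted p 0.0926). Slc25a24 was also higher in eWAT than in BAT (-2.33 for BAT against eWAT, SE 0.17), and 7 macrophage markers summed to 15.8 to 30.5 CPM in WT RT, 69.6 to 149 CPM in WT TN, 15.2 to 19.5 CPM in KO RT and 48.8 to 67.9 CPM in KO TN. Their part in the rise was not tested. Slc25a25 had 10.5, 4.86, 10.8 and 10.3 CPM in WT RT and 14.3, 6.66, 23.8 and 40.3 CPM in WT TN, with overlap and no call (log2 1.22, SE 0.48, edgeR adjusted p 0.0644).

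**Figure D3:**
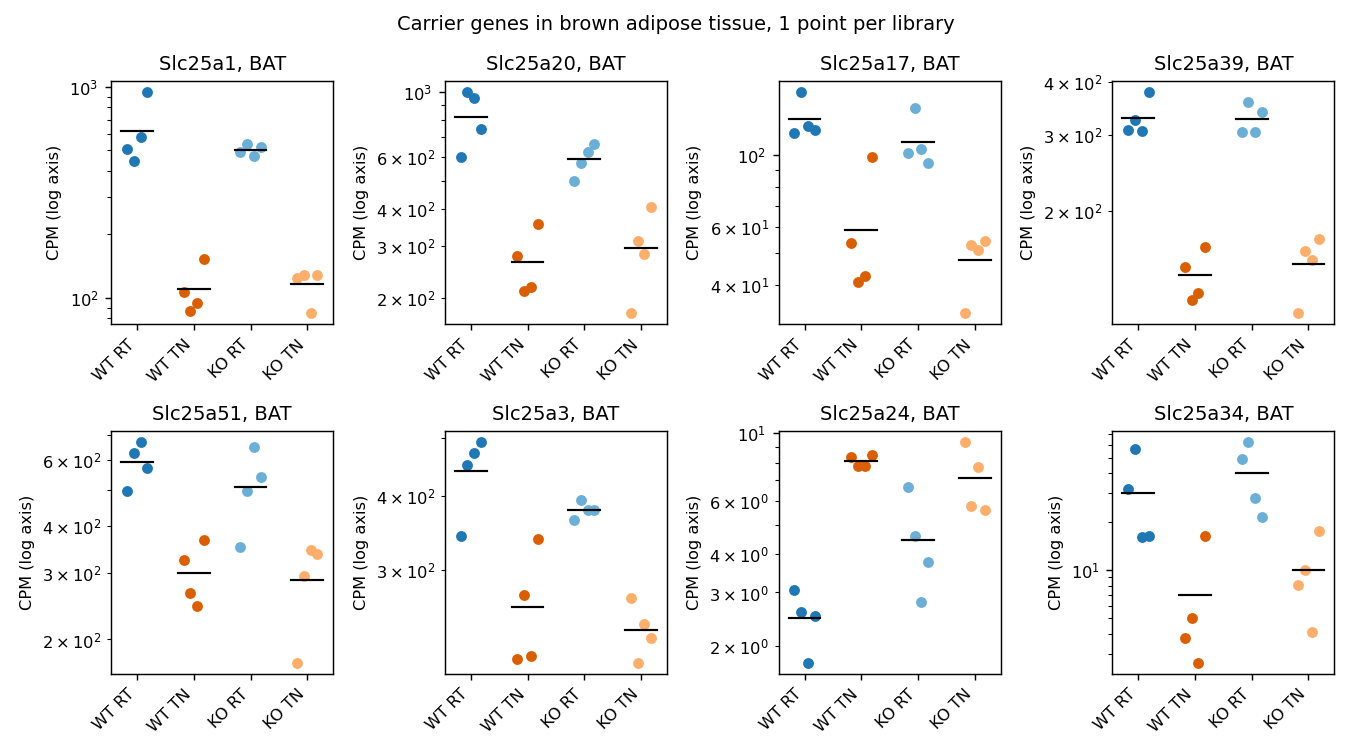
CPM in BAT (vertical axes, log scale) of 8 carriers in the 4 groups of 4 libraries (horizontal axes), with 1 point per library and a line at the arithmetic mean. Slc25a1, Slc25a20, Slc25a17, Slc25a39, Slc25a51 and Slc25a3 are lower at TN in both genotypes, Slc25a24 is higher at TN in WT, and Slc25a34 spreads widely within groups.

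The role with the most members was that of cofactors, glutathione and other nucleotides. It had 8 of 11 carriers lower in WT and 3 in KO, beside 16.7% and 8.52% of all genes. Among carriers of other or unassigned role, 3 of the 4 tested were lower in WT. Slc25a39, which imports glutathione, had 309, 325, 307 and 378 CPM in WT RT, 148, 124, 129 and 165 CPM in WT TN, 306, 359, 305 and 339.6 CPM in KO RT and 116, 162, 154 and 172 CPM in KO TN. Within each genotype all RT libraries lay above all TN libraries, and the changes were -1.22 (SE 0.15, edgeR adjusted p 1.98e-05) and -1.12 (SE 0.15, edgeR adjusted p 8.83e-05). Its close relative Slc25a40 stayed within 6.25 to 11.1 CPM over all 16 libraries, with changes of -0.02 and 0.07 that were not called. Slc25a51 had 495, 628, 672 and 572 CPM in WT RT and 325, 266, 246 and 367 CPM in WT TN (log2 -0.98, SE 0.22, edgeR adjusted p 0.0026), and its KO change was -0.83 (SE 0.22, edgeR adjusted p 0.0157). Slc25a17, a peroxisomal carrier of coenzyme A and NAD+, had 117, 156, 123 and 119 CPM in WT RT and 53.8, 40.9, 42.5 and 98.7 CPM in WT TN, with changes of -1.12 (SE 0.24) in WT and -1.20 (SE 0.24) in KO.

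Other falls in this role in WT were those of Slc25a32, the folate and FAD carrier (-1.45, SE 0.26), the pyrimidine nucleotide carriers Slc25a33 (-1.19, SE 0.23) and Slc25a36 (-0.37, SE 0.14), and Slc25a16 (-0.66, SE 0.18), all on the log2 scale. The call of Slc25a36 rested on a narrow margin and was lost in 16 of 22 alternatives. Its adjusted p was highest, at 0.147 by edgeR, without the 6 libraries rich in skeletal muscle markers. Slc25a42 had 239.6, 275, 206 and 185 CPM in WT RT and 275, 252, 240.1 and 253 CPM in WT TN, with no call (log2 0.17, SE 0.23). The S-adenosylmethionine carrier Slc25a26 was not called either (-0.13).

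Among the remaining members, Slc25a34 had 32, 56.9, 16 and 16.4 CPM in WT RT and 3.75, 5.05, 2.64 and 16.4 CPM in WT TN, where the highest TN library matched the lower RT libraries. Its change was -2.13 (SE 0.66, edgeR adjusted p 0.0263), and the adjusted p ran up to 0.0867, without WT RT library 15. In KO it had 48.9, 62.9, 28.2 and 21.4 CPM at RT and 8.05, 10.1, 4.13 and 17.5 CPM at TN, without overlap, but its change of -2.02 was not called (edgeR adjusted p 0.0561). Slc25a35 and Slc25a46, an outer membrane protein that shapes mitochondria, fell in WT by 0.98 (SE 0.21) and 0.75 (SE 0.17) on the log2 scale. Mitoferrin-2 (Slc25a28), an iron carrier, changed by -0.00 and was not called. The other mitoferrin, Slc25a37, rose by 0.54 (SE 0.18, edgeR adjusted p 0.03), with overlap and with an adjusted p of up to 0.109, without WT TN library 6. The 3 carriers akin to uncoupling proteins, Slc25a14, Slc25a27 and Slc25a30, were not called, with changes between 0.20 and 1.23.

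Slc25a12 (aralar), the aspartate/glutamate carrier of muscle and brain, was called higher in WT at TN (log2 2.36, SE 0.76, edgeR adjusted p 0.0296). It had 2.2, 2.98, 3.92 and 1.98 CPM in WT RT, and 5.53, 23.1, 5.84 and 22.6 CPM in WT TN libraries 1, 6, 7 and 24. The high values in WT TN libraries 6 and 24 came with skeletal muscle marker sums of 5429 and 5193 CPM, whereas libraries 1 and 7 had sums of 12.2 and 8.51 CPM. The call was lost without any 1 WT RT library, or without WT TN library 6 or 24, with an edgeR adjusted p of up to 0.0816. With the 6 libraries whose muscle markers exceeded 1000 CPM left out, the change was 1.05 (edgeR adjusted p 0.0449). Over all BAT libraries the highest Slc25a12 level, 32.2 CPM, fell in KO TN library 2, which also had the highest muscle sum, 7564 CPM. Slc25a4, the ADP/ATP carrier of muscle and heart, was higher in WT TN libraries 6 and 24 (414 and 594 CPM) than in libraries 1 and 7 (303 and 286 CPM). Brown adipocyte markers summed to 7705 CPM in library 24 and to 4024, 4099 and 4138 CPM in libraries 6, 1 and 7. The part of muscle or brown adipocyte RNA in these Slc25a4 levels was not tested.

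**Figure D4:**
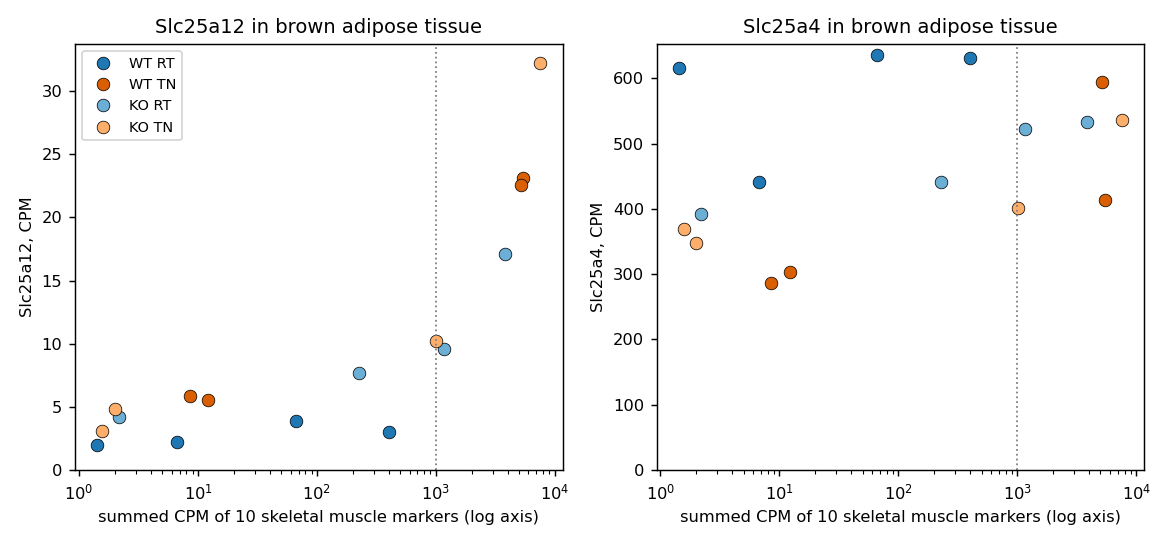
CPM of Slc25a12 and Slc25a4 in the 16 BAT libraries (vertical axes) against the summed CPM of 10 skeletal muscle markers (horizontal axes, log scale), coloured by group, with a dotted line at 1000 CPM. Slc25a12 lies at or under 7.71 CPM in every library left of the line and between 9.62 and 32.2 CPM in the 6 to its right, while Slc25a4 overlaps between both sides. Carrier levels are TMM-scaled and marker sums are not.

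Without the 6 muscle-rich libraries, 22 carriers were called in WT, 18 of them lower and 4 higher, beside 13.9% and 13.2% of all genes in that fit (27.1% in either direction). In KO 4 were called, 3 of them lower and 1 higher, beside 2.64% and 2.03% (4.67%). Slc25a1, Slc25a17 and Slc25a39 were still called lower in KO. The KO changes of Slc25a3 (-0.70, edgeR adjusted p 0.0869) and Slc25a20 (-0.81, edgeR adjusted p 0.0937) lost their calls, and that of Slc25a51 shrank from -0.83 to -0.37 (edgeR adjusted p 0.459). That smaller comparison has 2 libraries in each of WT TN, KO RT and KO TN in place of 4. Brown adipocyte markers summed to 8410 to 13900 CPM in WT RT, 4020 to 7710 CPM in WT TN, 8280 to 12600 CPM in KO RT and 3610 to 6290 CPM in KO TN, and so moved with the falling carriers. Mature adipocyte markers had medians of 14800, 14500, 12900 and 14800 CPM in the same groups. The part of either in the carriers' changes was not tested.

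The falls in BAT extended to other mitochondrial genes. Of 83 nuclear respiratory chain subunits tested, 78 were lower and 1 was higher in WT at TN, with a median log2 change of -1.23, and 52 were lower in KO, with a median of -0.69. Of 28 other genes of mitochondrial transport, 18 were lower and 2 higher in WT (median -0.65) and 10 were lower and 2 higher in KO (median -0.26). The subunits Mpc1 and Mpc2 of the pyruvate carrier, which lies outside the SLC25 family, changed by -2.18 and -2.35 in WT. Among family proteins under other names, Ucp1 changed by -1.86 (SE 0.39) and the outer membrane insertase Mtch2 by -1.51 (SE 0.18) in WT, while Ucp2 rose by 1.96 (SE 0.19). The carriers thus had a smaller median change than the respiratory chain subunits, and this difference between lists was not tested.

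No carrier of BAT was called between genotypes. Between KO and WT at RT, 0 of 42 carriers were called by edgeR, beside 0.0887% of all genes, 9 had an unadjusted p under 0.05, and DESeq2 called 2. The lowest p among them belonged to Slc25a5, with 339, 402, 364 and 429 CPM in KO RT against 423, 619, 702 and 618 CPM in WT RT (log2 -0.62, SE 0.19, edgeR adjusted p 0.117). Leaving out WT RT library 12, the one that overlapped the KO libraries for Slc25a5, gave 4 calls. At TN, 0 of 42 were called by edgeR or DESeq2, beside 0% of all genes, and 2 had an unadjusted p under 0.05, Slc25a22 (0.69, SE 0.18) and Slc25a42 (0.49, SE 0.23). The interaction of genotype and housing was called in 0 of 42 carriers by edgeR and DESeq2, beside 0% of all genes, with 5 at an unadjusted p under 0.05, and its estimate for Slc25a1 was 0.37 (SE 0.32, edgeR adjusted p 0.679). The larger number of falls in WT than in KO is therefore no tested difference between genotypes.

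The housing effect in BAT was next set against the effect in the other tissues, as a difference of log2 changes averaged over genotypes. It was more negative in BAT than in liver for 15 of 45 carriers and more positive for 2, beside 9.76% and 7.02% of all genes (16.8% in either direction). Against eWAT, 9 were more negative and 5 more positive, beside 8.49% and 7.99% (16.5%). Slc25a1 differed most firmly, by -2.23 (SE 0.18, edgeR adjusted p 9.72e-12) from liver and -1.71 (SE 0.18, edgeR adjusted p 1.43e-08) from eWAT. Slc25a20 differed by -1.46 (SE 0.19) and -1.16 (SE 0.19), Slc25a39 by -1.06 (SE 0.13) and -0.79 (SE 0.13), and Slc25a51 by -1.05 (SE 0.19) and -0.85 (SE 0.19). Slc25a12 was more positive in BAT than in liver by 1.34, which became 0.22 (edgeR adjusted p 0.791) without the 6 muscle-rich BAT libraries. Without those libraries the calls numbered 12 against liver, beside 11.5% of all genes, and 10 against eWAT, beside 9.82%.

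In liver, housing left the carriers uncalled. In WT, 0 of 42 were called by edgeR, beside 0.0227% of all genes, 4 had an unadjusted p under 0.05 and DESeq2 called 1. In KO, 0 of 42 were called by edgeR or DESeq2, beside 0.114% of all genes, and 6 had an unadjusted p under 0.05. Slc25a1 had 169, 150.2, 174 and 162 CPM in WT RT and 158, 157, 209 and 175 CPM in WT TN, which overlapped. Slc25a20 had 175, 122, 146 and 149 CPM in WT RT and 206, 177, 201 and 109.7 CPM in WT TN, which overlapped as well. Slc25a47, the most abundant carrier of liver per kilobase with Slc25a5, ranged over 420.4 to 955 CPM across all 16 libraries.

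In liver, 1 carrier was called between genotypes. Between KO and WT, 0 of 42 were called at RT by edgeR or DESeq2, beside 0.0853% of all genes, with 5 at an unadjusted p under 0.05. At TN, 1 of 42 was called lower and 0 higher, beside 1.85% of all genes called lower and 3.18% in either direction, with 13 at an unadjusted p under 0.05. The gene was Slc25a10, which exchanges malate or succinate for phosphate. It had 387, 385, 401 and 226 CPM in WT TN libraries 1, 6, 7 and 24 and 258, 231, 201 and 197 CPM in KO TN, so WT TN library 24 lay within the KO range and the other 3 lay above it. The change was -0.66 (SE 0.16, edgeR adjusted p 0.0274). It was -0.83 (edgeR adjusted p 0.00208) without WT TN library 24, where 3 carriers were called. The call was lost without WT TN library 1, 6 or 7 or KO TN library 4, 5 or 22, with an edgeR adjusted p of up to 0.0906. At RT the same gene had 380.3, 275, 314 and 266 CPM in WT and 257, 212, 256 and 233 CPM in KO (log2 -0.37, SE 0.16, edgeR adjusted p 0.422). The interaction was called in 0 of 42 carriers by edgeR and DESeq2, beside 0% of all genes, with 3 at an unadjusted p under 0.05.

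In eWAT the calls lay in KO mice. From RT to TN, 6 of 43 carriers fell and 0 rose in KO, beside 0.718% of all genes called lower and 1.74% in either direction. Slc25a1 had 511, 454, 437 and 600.3 CPM in KO RT and 264, 354, 273 and 249 CPM in KO TN, without overlap (log2 -0.81, SE 0.16, edgeR adjusted p 0.0247). In WT it had 456, 445, 355 and 672 CPM at RT and 409, 367, 380.1 and 366 CPM at TN, which overlapped (log2 -0.34, SE 0.16, edgeR adjusted p 0.713). Slc25a39 had 149.6, 179, 139 and 184 CPM in KO RT and 111, 124, 122 and 108 CPM in KO TN, also without overlap (log2 -0.49, SE 0.10, edgeR adjusted p 0.0268). The others were Slc25a35 (-0.65, SE 0.15), Slc25a22 (-0.53, SE 0.13), Slc25a11 (-0.45, SE 0.11) and Slc25a3 (-0.39, SE 0.10), and the groups of Slc25a11 alone overlapped. Slc25a1, Slc25a3 and Slc25a39 were thus lower at TN in KO mice in both fat depots. Markers of other cells moved in the same comparison. Macrophage markers summed to 200 to 266 CPM in KO RT and 336 to 383 CPM in KO TN of eWAT, and brown adipocyte markers to 37.4 to 45.9 and 21.3 to 26.8 CPM, both without overlap. The hepatocyte marker sum had a median of 1670 CPM in KO RT and 300 CPM in KO TN. Their part in the falls was not tested.

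The eWAT calls rested on the spread shared with WT and on single libraries. All 6 were lost when KO RT library 19, KO TN library 3 or KO TN library 21 was left out, and 0 were called in a fit to the 8 KO libraries alone, while 8 were called without KO RT library 16. Among respiratory chain subunits, 12 of 84 were lower in the same comparison, with a median of -0.44. In WT, 0 of 43 carriers were called by edgeR, beside 0% of all genes, 6 had an unadjusted p under 0.05 and DESeq2 called 1. The interaction was called in 0 of 43 by edgeR and DESeq2, beside 0% of all genes, with 5 at an unadjusted p under 0.05, so the KO falls are not shown to differ from WT.

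**Figure D5:**
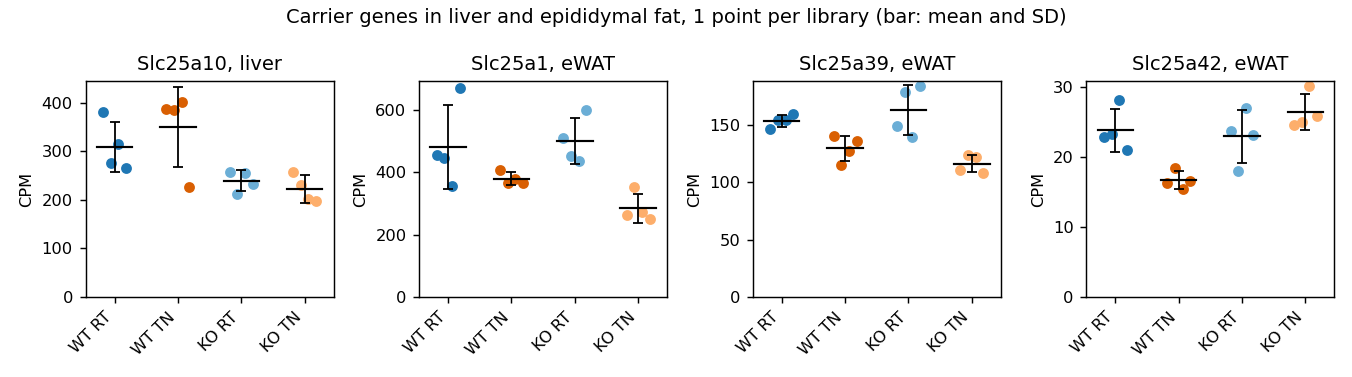
CPM (vertical axes, from 0) of Slc25a10 in liver and of Slc25a1, Slc25a39 and Slc25a42 in eWAT in the 4 groups (horizontal axes), with 1 point per library and bars of mean and SD (n = 4). A WT TN liver library of Slc25a10 lies at 226 CPM among the KO libraries, and the KO TN libraries of Slc25a42 all lie above the WT TN libraries.

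Between genotypes in eWAT, 0 of 43 carriers were called at RT by edgeR, beside 4.34% of all genes, 9 had an unadjusted p under 0.05, and DESeq2 called 4. The nearest was Slc25a24, with 30.7, 22.9, 26.3 and 25.4 CPM in KO RT and 38.7, 32.6, 42.7 and 35.9 CPM in WT RT, which did not overlap (log2 -0.51, SE 0.14, edgeR adjusted p 0.0514). At TN, 1 of 43 was higher in KO and 0 lower, beside 0.174% of all genes called higher and 0.586% in either direction, with 5 at an unadjusted p under 0.05. It was the coenzyme A carrier Slc25a42, with 24.5, 25, 30 and 25.8 CPM in KO TN and 16.2, 18.4, 15.4 and 16.5 CPM in WT TN, without overlap (log2 0.66, SE 0.13, edgeR adjusted p 0.0401). Macrophage markers separated the same groups, with 336 to 383 CPM in KO TN and 437 to 874 CPM in WT TN of eWAT, and their part in the difference was not tested. At RT the Slc25a42 values were 23.7, 17.9, 26.9 and 23 CPM in KO and 22.8, 23.2, 28.1 and 21 CPM in WT, which overlapped. The call at TN was lost in 12 of 21 alternatives, among them the fit to the 8 libraries compared and the removal of any 1 KO TN library, with an edgeR adjusted p of up to 0.166.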

How the data were processed

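The authors deposited raw read counts per gene for each of 48 libraries. Per the submitters' processing notes, fastp, STAR 2.6.1d and featureCounts 1.5.0-p3 were used with GRCm38/mm10. The annotation, the strand setting and the treatment of reads with several hits are not given in the sources used here, so close paralogs and antisense genes could share reads. Per the labels, libraries were made with NEBNext Ultra and read in paired-end mode.

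Roles, comparison lists and markers were chosen, and members taken by symbol alone, with earlier results of these data known. Groups came from the labels. Each tissue was fitted over 16 libraries in R 4.3.3 with edgeR 4.0.16 (TMM scaling (trimmed means of M values); a filterByExpr minimum count of 10; a mean for each group; robust quasi-likelihood F tests; Benjamini-Hochberg over 18032 genes in BAT, 17594 in liver and 18933 in eWAT). Tissues were compared in 1 fit over 48 libraries and 21910 genes. SE is the absolute log2 change divided by the square root of F. Lengths are merged GENCODE exons. The procedure was tested on simulated data.

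A rule picked, per comparison, up to 5 called carriers per direction with the largest change and a mean of at least 1 CPM. It always picked 15 fixed carriers: Slc25a1, 3, 4, 5, 10, 11, 12, 13, 20, 25, 34, 42, 44, 47 and 51. Some of the carriers picked are given library by library, and others by log2 change and SE or by range. Carriers outside this rule, such as Slc25a40 in BAT, were named after their values were seen. Alternatives were RLE scaling, no filter, at least 1 CPM in 4 libraries, DESeq2 1.42.0, only the 8 libraries compared, each library left out and a replicate block. Leaving out the 6 BAT libraries with skeletal muscle markers above 1000 CPM was chosen after seeing the data. The results of 1 carrier are not reported here by name, and counts of carriers include it. Sequences are RefSeq's (GRCm38.p6). The upper limits given for genes without counts cover counting error only. SD and SE values include variation between libraries.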

Additional observations from a re-analysis of the deposited data

Results flagged for a closer look

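Among the 27 carriers picked by the rule given above, 308 groups of 4 libraries could be searched for a library far from the other 3, by Dixon's 95% criterion. Of these groups 22 (7.14%) held one, where chance alone gives about 5%. In liver, WT TN library 24 accounted for 4 of them. It was lowest for Slc25a10 (226 CPM against 385 to 401 CPM in the other 3) and Slc25a39 (242.5 against 352 to 368), and highest for Slc25a22 (222 against 121 to 134) and Slc25a44 (109.5 against 53.5 to 57.4). Also in liver, WT TN library 1 was highest for Slc25a21 (17.2 CPM), WT TN library 6 for Slc25a24 (3.57 CPM), KO RT library 16 for Slc25a32 (34.6 CPM) and KO TN library 22 for Slc25a51 (132 CPM, against 64.8 to 71.2), and KO RT library 9 was lowest for Slc25a37 (58.5 CPM).

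In BAT, KO TN library 2 was highest for Slc25a13 (6.87 CPM, against 0.502 to 1.45) and lowest for Slc25a17 (32.8 CPM), WT RT library 15 was highest for Slc25a17 (156 CPM) and lowest for Slc25a25 (4.86 CPM, against 10.3 to 10.8), KO TN library 4 was lowest for Slc25a1 (84.7 CPM) and WT RT library 12 for Slc25a4 (441 CPM). In eWAT, Slc25a10 was highest in KO RT library 19 (683 CPM, against 291 to 357) and in KO TN library 4 (374 CPM), and WT TN library 23 was highest for Slc25a25 (106 CPM) and Slc25a35 (41.2 CPM). WT TN library 8 of eWAT was highest for Slc25a47 (15.5 CPM, against 2.78 to 4.58) and had the highest hepatocyte marker sum of its group, 1774 CPM. WT TN library 7 was highest for Slc25a17 (62.6 CPM) and KO RT library 10 lowest for Slc25a32 (16.9 CPM).

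The housing effect differed between BAT and liver by edgeR's test of the difference for 15 of these carriers. The difference on the log2 scale, BAT minus liver, was -2.38 for Slc25a34, -2.23 for Slc25a1, -1.46 for Slc25a20, -1.33 for Slc25a32, -1.06 for Slc25a39, -1.05 for Slc25a51 and -0.92 for Slc25a17. It was -0.81 for Slc25a5, -0.74 for Slc25a4, -0.69 for Slc25a22, -0.65 for Slc25a3, -0.55 for Slc25a44 and -0.43 for Slc25a11, and it was positive for Slc25a12 (1.34) and Slc25a45 (0.76). Without the muscle-rich BAT libraries the calls of Slc25a11, Slc25a12, Slc25a22, Slc25a44 and Slc25a45 were lost, with edgeR adjusted p values of 0.0772, 0.791, 0.0848, 0.152 and 0.0668. BAT minus eWAT differed for 13 carriers, with -1.71 for Slc25a1, -1.16 for Slc25a20, -1.11 for Slc25a32, -1.08 for Slc25a17, -0.85 for Slc25a51, -0.79 for Slc25a39, -0.47 for Slc25a3 and -0.45 for Slc25a5. It was positive for Slc25a47 (2.09), Slc25a48 (1.5), Slc25a25 (1.18), Slc25a24 (1.0) and Slc25a42 (0.53). Without the muscle-rich BAT libraries the calls of Slc25a5, Slc25a24, Slc25a25 and Slc25a47 were lost, with edgeR adjusted p values of 0.133, 0.211, 0.317 and 0.125. Of 54 alternatives, the call was lost in 18 for Slc25a25, 12 for Slc25a42, 10 for Slc25a5, 9 for Slc25a24, 7 for Slc25a48 and 2 for Slc25a47. Hepatocyte markers moved with Slc25a47: their medians at RT and TN were 89.5 and 661 CPM in WT BAT, 153 and 853 CPM in KO BAT, 965 and 517 CPM in WT eWAT and 1670 and 300 CPM in KO eWAT, and their part in its difference was not tested. Slc25a48 was lower at TN in WT BAT, and its positive difference came with eWAT levels of 0.272 to 2.38 CPM at RT and 0 to 0.537 CPM at TN. The highest of these eWAT levels was in KO RT library 16, which also had the highest hepatocyte marker sum of eWAT, 5435 CPM. WT TN library 8, with a sum of 1774 CPM, had 0.392 CPM of Slc25a48. The part of hepatocyte RNA in these levels was not tested.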

How the results depend on the processing

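No named result reversed. Of 6099 values of 134 called results under the alternatives, 5883 kept direction and call, 216 kept direction only and 0 changed sign. Tissue comparisons gave 1272, 1272 and 1325 of these values, most of them with 1 of 48 libraries left out. Housing calls held in 376 of 418 values in WT BAT, 128 of 132 in KO BAT and 75 of 126 in KO eWAT. Genotype calls at TN held in 15 of 21 values in liver and 9 of 21 in eWAT. Counts of called carriers moved by over 1.5 times with DESeq2 in BAT from RT to TN in KO (11, against 6), in BAT for genotype at RT (2), in liver from RT to TN in WT (1), in eWAT from RT to TN in WT (1) and in eWAT for genotype at RT (4, and 2 with at least 1 CPM in 4 libraries), the last 4 against 0. Fits to only the 8 libraries compared gave 0 in eWAT for housing in KO and 0 for genotype at TN. Without muscle-rich libraries genotype at RT in BAT gave 1. The cause was not tested. Leaving out 1 library gave 19 to 23 calls in BAT for housing in WT and 6 to 12 in KO, and for genotype 0 to 4 at RT and 0 to 0 at TN. It gave 0 to 1 in liver for housing in WT, 0 to 0 in KO, and 0 to 0 and 0 to 3 for genotype at RT and TN. It gave 0 to 0 in eWAT for housing in WT, 0 to 8 in KO, 0 to 3 for genotype at RT and 0 to 1 at TN. All 3 interactions stayed at 0 to 0. Tissue comparisons ran from 34 to 37 (BAT and liver), 32 to 34 (BAT and eWAT) and 37 to 38 (liver and eWAT), and differences of housing effects from 14 to 19 and from 11 to 16.

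Libraries of different tissues can carry one replicate number, which the labels do not tie to an animal. Over 35 such pairs, deviations from group means correlated at -0.24 to 0.12 (median 0.007), 1 above 0.1. In 11 of the 35, the best match among the 4 libraries of the same genotype and housing carried the same number. The main fits did not use the numbers as pairing. Low correlation between different tissues cannot tell whether 2 libraries come from the same animal, so a shared animal remains possible. With the number as a replicate block, calls were 32 (BAT and liver), 28 (BAT and eWAT), 36 (liver and eWAT), 17 (housing effect, BAT minus liver) and 7 (BAT minus eWAT, against 14). Under the block the called differences in housing effect were lost for Slc25a11 and Slc25a12 against liver (adjusted p 0.11 and 0.0972), and against eWAT for Slc25a5 (0.212) and all 5 named positive ones, Slc25a24 (0.17), Slc25a25 (0.098), Slc25a42 (0.0937), Slc25a47 (0.229) and Slc25a48 (0.078). No paired analysis was possible within a tissue because the groups compared share no replicate number. The 4 libraries per group limit the genotype contrasts, and carriers under about 1 CPM, such as Slc25a18 and Slc25a43, lie near the counting limit.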
